A study of Mus musculus with 8 samples.

Results

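Pseudouridine synthases are the enzymes that turn uridine into pseudouridine within RNA, and 10 of their genes were followed here in mouse palm skin after an injection of PACAP (pituitary adenylate cyclase-activating polypeptide). The members were all probes whose gene name in the array files was Trub1, Trub2, Pus1, Pus3, Pus7, Pus10, Dkc1, Rpusd1, Rpusd3 or Rpusd4. All 10 genes had at least 1 probe, 14 probes in all, out of 29608 gene names and 39429 probes. The family was chosen by the fall of Trub2 after PACAP in KO mice at 30 min, so the Trub2 values of that comparison are given as a description with no test.

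The study measured whether PACAP changes gene expression in sweat gland-bearing skin and whether its receptor PAC1R is needed. WT mice (strain C57BL/6J in the labels) and PAC1R KO mice (Adcyap1r1 -/-, labelled with the same strain) were 9 to 10 weeks old, 6 of each genotype, and were anaesthetized before the injection. Each received 5 µL of saline with 0.1% BSA into the footpad, either alone (vehicle) or with PACAP at 1e-07 mol/L, and forepaw skin was taken 30 or 60 min later. The PACAP and vehicle RNA of 1 genotype and time were hybridised together on 2 arrays with swapped Cy5 and Cy3 dyes, which gave 4 comparisons (WT30, KO30, WT60 and KO60, after genotype and minutes), 8 RNA samples and 8 arrays. Both arrays of a comparison carry the same RNA pair, so each comparison was 1 replicate and its spread between arrays is technical. How many mice entered an RNA sample is not named in the sources used here. All WT arrays lay on one slide and all KO arrays on another, and genotype and slide can therefore not be told apart. The deleted gene, Adcyap1r1, had a log2 level of 8.27 to 8.76 in the WT samples and of 7.91 to 8.56 in the KO samples. Those ranges overlap, and whether its probe lies outside the deleted part is not given in the sources used here, so the genotype of each sample is taken as labelled. The epidermal and palm marker genes were well above background in at least 1 channel of every array (8 of 8, and Krt9). By the same rule so were 6 of 6 eccrine gland genes, although Cftr, with a log2 level of 5.93 to 6.11, was close to background.

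Pseudouridine is the commonest modified base of RNA, and it stiffens the RNA backbone and stabilises base pairing. Some synthases recognise their target on their own, mostly in transfer RNA, while dyskerin, the product of Dkc1, is led to its targets by H/ACA guide RNAs. A further group works in mitochondria. There the products of Trub2, Rpusd3 and Rpusd4 act together with Ngrn, Rcc1l and Fastkd2 on the large ribosomal RNA that the mitochondrial ribosome needs for making subunits of the respiratory chain. These are housekeeping enzymes, needed by many cell types. In bulk skin, fewer cells of a type and less RNA per cell cannot be told apart.

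Trub2 was read by 3 probes on the minus strand of chromosome 2 (mm9). The 3′ probe lay at chr2:29632129-29632188, the middle probe 5512 bp further toward the 5′ end at chr2:29637641-29637700, and the 5′ probe 6667 bp from the first at chr2:29638796-29638855. The 3′ probe was printed on 10 spots of every array and the other probes on 1 spot each. The 5′ and middle probes are shown in full because they read other stretches of the same gene. In the 3′ probe only the stretch that occurs more than once is shown, in capitals, since a repeat within a probe is a feature that few probes have.
Trub2 5′ probe: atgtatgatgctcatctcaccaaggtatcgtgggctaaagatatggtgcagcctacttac
Trub2 middle probe: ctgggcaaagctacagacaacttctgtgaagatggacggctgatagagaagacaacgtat
Trub2 3′ probe, repeated stretch: TTGTTGGTGTCTGCAGTGT
The repeated stretch of 19 bases began at bases 1 and 40 of the 60-base probe. An internal direct repeat of at least this length was held by 58 of 39429 probe sequences (0.147%), and none of the other 13 member probes had one of 8 bases or more. The longest stretch that the 3′ probe shared with any other probe, on either strand, was 14 bases, found in probes for Cstf3 and E130114P18Rik. Their PACAP over vehicle ratios in KO30 were 1.36-fold and 1.01-fold.

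The 3′ probe of Trub2 was well above background in both channels of all 8 arrays. Its level, a log2 intensity after normalization, was 11.27 in vehicle and 11.70 in PACAP skin of WT30, and 11.43 and 11.60 in WT60. In KO mice the vehicle and PACAP levels were 11.00 and 9.74 in KO30, and 11.42 and 11.44 in KO60. Thus 7 samples lay between 11.00 and 11.70 (mean 11.41 ± 0.22, SD, n = 7), and the PACAP sample of KO30 stood below them all. That sample is the one by which Trub2 was chosen, so nothing is read from its distance to the others.

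**Figure D1:**
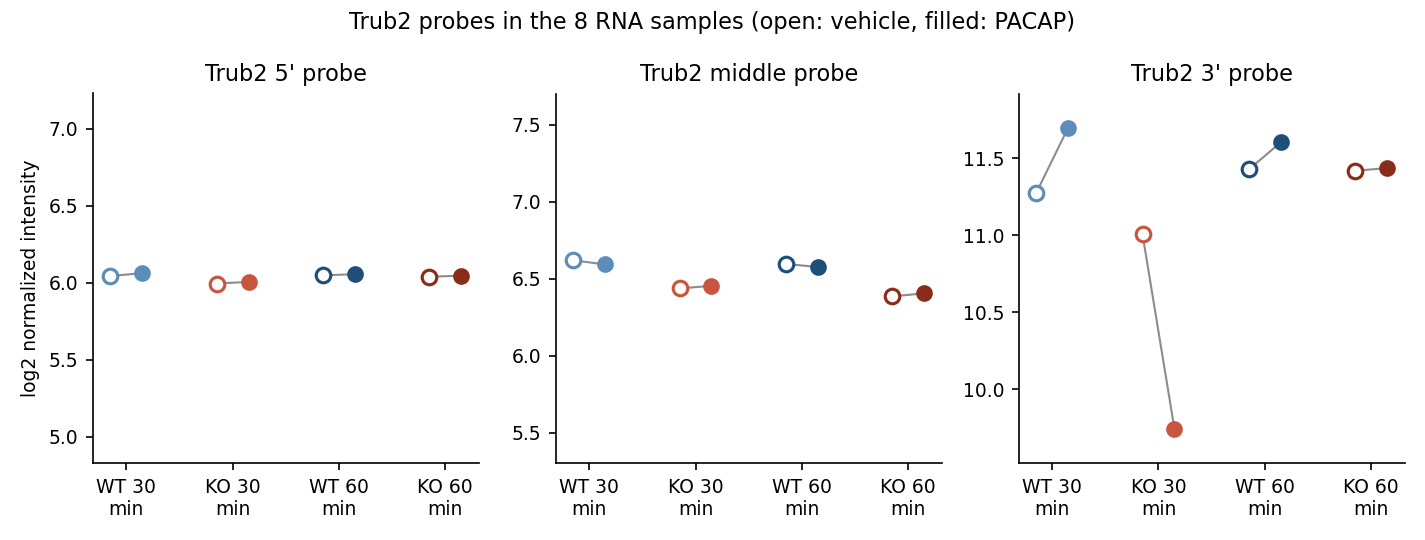
Level (log2 normalized intensity) of each Trub2 probe in the 8 RNA samples, with vehicle as open and PACAP as filled points and a line joining the samples of a comparison; every panel spans the same range of 2.4 log2 units, and levels are not comparable between probes. The 3′ probe dropped to 9.74 in 1 sample and lay between 11.00 and 11.70 in the others, while the dim 5′ and middle probes, close to background, spanned 0.07 and 0.23.

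As a ratio of PACAP over vehicle, averaged over both dye orientations, the 3′ probe was at 0.398-fold in KO30 (0.446 and 0.356 on the 2 arrays). In the other comparisons its ratio was 1.34-fold in WT30, 1.11-fold in WT60 and 1.00-fold in KO60. The 10 spots of an array agreed closely. After outlier spots were left out, the 8 remaining spots of each KO30 array ranged from 0.438 to 0.455-fold and from 0.346 to 0.366-fold. The gap between the dye orientations was thus wider than the spread among copies of the probe, and the 10 spots are 1 measurement of 1 sequence.

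**Figure D2:**
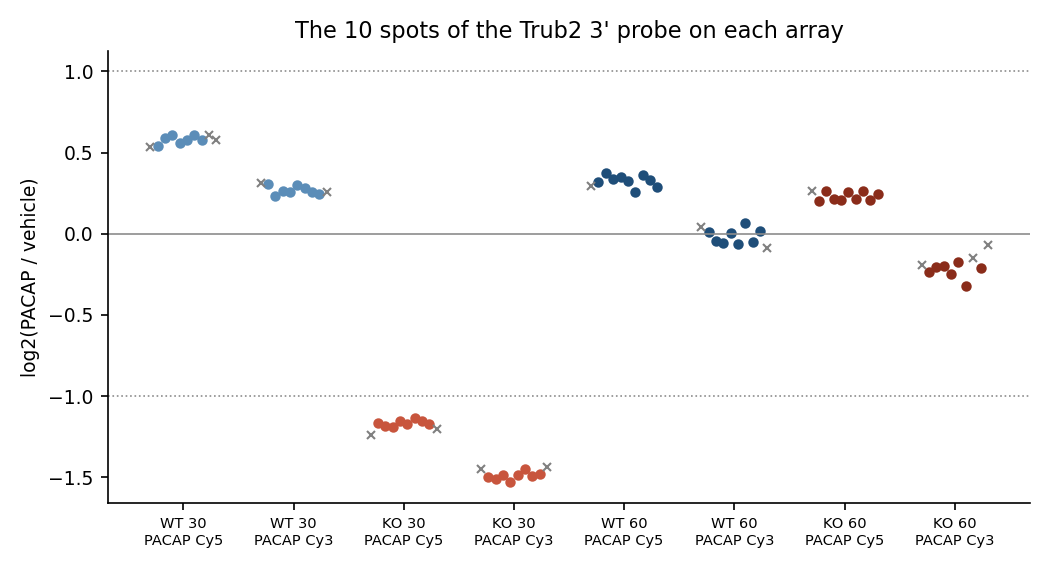
Ratio of PACAP over vehicle on the log2 scale at the 10 spots of the Trub2 3′ probe on each of the 8 arrays, with outlier spots as grey crosses and dotted lines at 2.0-fold and 0.5-fold. All spots of both KO30 arrays lay below 0.5-fold, while those of the other 6 arrays lay within the dotted lines.

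The middle and 5′ probes of Trub2 were near 1 as means over both arrays. In KO30 the middle probe was at 0.953-fold (1.14 and 0.799 on the arrays) and the 5′ probe at 1.04-fold (1.08 and 0.990). Both were dim. The middle probe was well above background in 14 of its 16 channel readings and the 5′ probe in 8 of 16, one array of each sample. Over the 8 samples the level of the middle probe ranged from 6.39 to 6.62 and that of the 5′ probe from 6.00 to 6.06. At the middle probe the KO samples (6.39 to 6.45) lay below the WT samples (6.58 to 6.62), a log2 difference of -0.18 (SE 0.05). Such a lack of overlap between the genotypes was found at 17.5% of probes. A change at the 5′ probe could not be measured at this signal. For the PACAP sample of KO30 only 1 array read the middle probe well above background, and so close to background the offset of 50 used for levels compresses differences. Of the 39 genes with a probe called down in KO30, 17 had a further probe above background. Among those 17, a further probe was also called down for 3 genes, and for 14, Trub2 among them, none was. Among genes called down in the other comparisons that had a further probe, it was also called for 4 of 7 in WT30, 3 of 12 in WT60 and 8 of 9 in KO60.

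Leaving out the comparison that chose it, the 3′ probe of Trub2 averaged 0.19 on the log2 scale over the other 3 comparisons (SE 0.10, limma adjusted p = 0.497). The ratio in KO60 differed from the mean of WT30 and WT60 by -0.29 (SE 0.22, adjusted p = 1). Neither passed the test. The probe was above vehicle on both arrays of WT30 (1.49 and 1.20-fold) and on opposite sides of 1 in both comparisons at 60 min.

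Within 50 kb of the 3′ probe lay 8 probes of 5 other genes, which were Rapgef1, Gm13420, Gm13547, Coq4 and Slc27a4. None of the 8 was called in any comparison. In KO30 their ratios ran from 0.817-fold at Rapgef1, a guanine nucleotide exchange factor, to 1.55-fold at 1 dim probe of Gm13547. Coq4, needed for coenzyme Q synthesis and next to Trub2 on the opposite strand, was at 1.08-fold.

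A probe was called when the mean ratio reached at least 2.0-fold, or at most 0.5-fold, with one direction and a scanner p below 0.01 on both arrays. The 3′ probe of Trub2 in KO30 was the single call among the 14 member probes in 4 comparisons. On the whole array this rule called 0.35% of probes in WT30 and 0.708% in KO30, and 0.692% in WT60 and 0.292% in KO60, and 0.107% were called down in KO30. Since that comparison chose Trub2, nothing is read from its count. Just outside the fold threshold was Dkc1 in KO30, at 0.547-fold, read by a dim probe (levels of 6.33 to 7.04 over the samples). The next farthest from 1 were Rpusd3 in WT30 (0.688 and 0.691-fold at its probes) and Trub1 in KO30 (1.41-fold). Ratios within 1.2-fold of 1 were found at 6 of 14 probes in WT30 and 10 in KO30, and at 12 and 13 at 60 min.

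**Figure D3:**
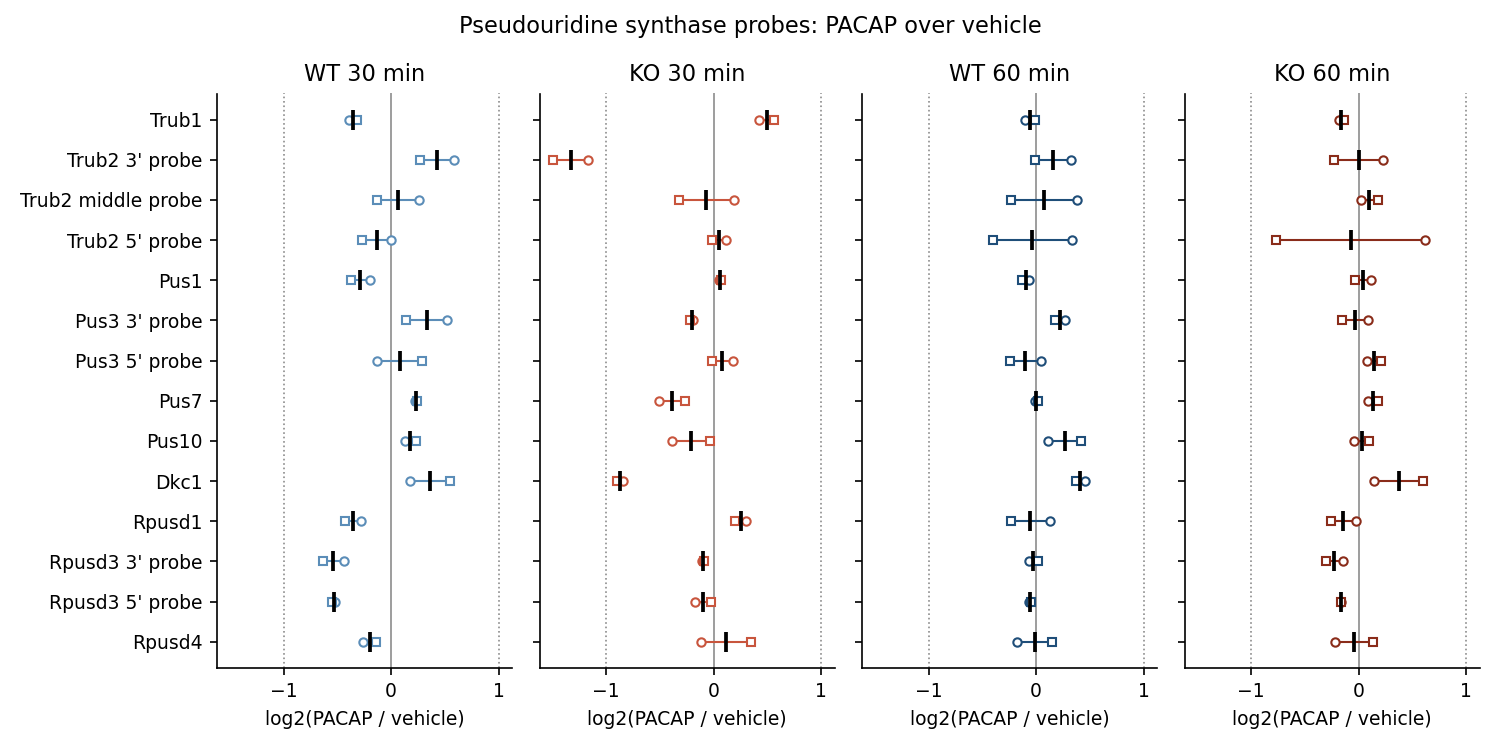
Ratio of PACAP over vehicle (log2) of the 14 member probes in the 4 comparisons, with the array carrying PACAP in Cy5 as a circle, that with PACAP in Cy3 as a square, their mean as a black bar, and dotted lines at 2.0-fold and 0.5-fold. Trub2 3′ in KO30 is the 1 mean beyond a dotted line (0.398-fold), with Dkc1 next at 0.547-fold.

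Over the 14 probes the median ratio was 0.975 in WT30 and 0.945 in KO30, beside 0.967 and 0.991 over 30350 probes above background. The medians of WT60 and KO60 were 0.985 and 0.989, beside 0.993 and 1.00 over all. The sign of the ratio was opposite between WT30 and KO30 at 11 of 14 member probes, where 70.7% of all probes had opposite signs (r = -0.42 across probes, which are not independent replicates). Between WT60 and KO60 it was opposite at 3 of 14, beside 44.5% of all probes (r = -0.02). The opposite signs at 30 min were therefore shared by most of the array.

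Of the members that act alone on transfer and messenger RNA, Trub1, which modifies transfer RNAs and some messenger RNAs, was read across an intron at chr19:57558101-57559579. Its level in vehicle and PACAP skin was 7.63 and 7.42 in WT30, 7.47 and 7.81 in KO30, 7.89 and 7.89 in WT60, and 7.62 and 7.58 in KO60. Its ratio was 0.782-fold in WT30 and 1.41-fold in KO30, with arrays on the same side of 1 in both. Pus7, a sequence-specific synthase (chr5:23246536-23246595), went the other way at 30 min, at 1.17-fold in WT and 0.764-fold in KO. Its levels were highest in the vehicle sample of KO30 (9.94) and lowest in that of WT60 (9.27), so its vehicle samples differed by more than any of its PACAP to vehicle pairs.

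Pus1 modifies transfer RNA in both nucleus and mitochondria, and its loss in humans causes a myopathy with sideroblastic anaemia. Its probe at chr5:111202731-111202790 was at 0.819-fold in WT30 and 1.04-fold in KO30, and at 0.935 and 1.03-fold at 60 min. Its 8 levels lay between 9.22 and 9.62. Pus3, which modifies the anticodon arm of transfer RNA, was read at chr9:35373887-35373946 (5′ probe) and chr9:35374690-35374749 (3′ probe). In WT30 its 3′ probe was at 1.26-fold and its 5′ probe at 1.06-fold, and in KO30 at 0.868 and 1.06-fold. The probes of Pus3 thus lay on different sides of 1 in KO30, within 1.2-fold of it. Pus10, another transfer RNA enzyme (chr11:23632354-23632413), ranged from 0.864-fold in KO30 to 1.20-fold in WT60. Rpusd1, a less studied relative (chr17:25867812-25867871), ranged from 0.782-fold in WT30 to 1.19-fold in KO30, with levels between 7.76 and 8.14.

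Dkc1, the synthase of H/ACA particles and a part of telomerase, was read at chrX:72354473-72354532. Its level in vehicle and PACAP skin was 6.88 and 7.04 in WT30, 6.72 and 6.42 in KO30, 6.45 and 6.53 in WT60, and 6.33 and 6.45 in KO60. The probe was dim, and well above background in 15 of its 16 channel readings. PACAP was below vehicle in KO30 alone. There the ratio was 0.547-fold (0.557 and 0.537 on the arrays, scanner p of 0.0021 on each). With normexp background correction and loess in place of the scanner's own processing it was 0.815-fold. That correction adds an offset of 50, which compresses differences at a dim probe. Background correction and dye normalization were changed together there, so their parts in this difference were not separated. Over all 4 comparisons the mean of Dkc1 was 0.07 on the log2 scale (SE 0.23), which did not pass the adjusted test. In the 3 comparisons other than KO30 Dkc1 was at 1.28, 1.33 and 1.29-fold. Their mean was 0.38 on the log2 scale (SE 0.07, limma adjusted p = 0.479), which did not pass either. With normexp and loess these ratios were 1.11, 1.06 and 1.09-fold. The other 9 genes of the H/ACA list are Nop10, Nhp2, Gar1 and genes of particle assembly such as Naf1, Shq1, Nolc1 and the Ruvbl helicases. Of the 10 genes 0 were called in any comparison, with median ratios of 0.989 in WT30 and 0.958-fold in KO30, and 0.991 and 1.07-fold at 60 min. Naf1 (1.31 and 0.772-fold in WT30 and KO30) and Nufip1 (1.29 and 0.784-fold) lay on the same sides of 1 as Dkc1 at 30 min, whereas Nop10 (0.933 and 1.27-fold) and Shq1 (0.744 and 1.25-fold) lay on the opposite sides.

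Of the mitochondrial members, Rpusd3, which modifies mitochondrial messenger RNA, was read by probes 68 bp apart, at chr6:113365323-113365382 (3′ probe) and chr6:113365391-113365450 (5′ probe). In vehicle and PACAP skin the level of the 3′ probe was 8.86 and 8.45 in WT30, 8.74 and 8.69 in KO30, 9.13 and 9.13 in WT60, and 9.17 and 9.03 in KO60. PACAP was at or below vehicle in every comparison at both probes. The ratio of the 3′ probe was 0.688-fold in WT30 and 0.933-fold in KO30, and 0.980 and 0.854-fold at 60 min. The 5′ probe gave 0.691, 0.936, 0.961 and 0.892-fold in the same order. Their mean over the 4 comparisons was -0.22 (SE 0.11, adjusted p = 1) and -0.21 (SE 0.11, adjusted p = 1) on the log2 scale, which did not pass the test. This limma fit called 0% of 30350 probes, with 678 at an unadjusted p below 0.05, none of them a member. Between genotypes the ratios also gave 0% called, with 972 probes at an unadjusted p below 0.05, and among the members other than Trub2 the lowest p was 0.0908 (the 3′ probe of Pus3, log2 difference -0.39, SE 0.20, adjusted p = 0.839).

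Levels over time and genotype were tested with limma on the 8 samples, with the pair hybridised together as a random block. At the 3′ probe of Rpusd3, 1 of its 2 probes, the level passed the test for time. All 4 samples at 60 min (9.03 to 9.17) lay above all 4 at 30 min (8.45 to 8.86), a log2 difference of 0.43 (SE 0.09, adjusted p = 0.037). At the 5′ probe the ranges overlapped (8.29 to 8.58 and 7.97 to 8.37) and the difference was 0.28 (SE 0.10, adjusted p = 0.107). The fit called 10.8% of 26352 probes, and 21.7% of probes had no overlap between the times, so 1 of the 11 member probes tested outside Trub2 is near that background. The call at the 3′ probe was lost without the vehicle sample of WT30 (adjusted p = 0.0796), without that of KO30 (adjusted p = 0.518) and without the PACAP sample of WT60 (adjusted p = 0.0519), fits that called 0%, 0% and 5.31% of all probes. It was also lost with vehicle samples alone (adjusted p = 0.132) or quantile-normalized signals (adjusted p = 0.0674). Its difference stayed between 0.35 and 0.49 under these and all other alternatives.

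Between genotypes 3.43% of probes were called and 0 of the 11 member probes tested outside Trub2. Rpusd4, which modifies mitochondrial ribosomal and transfer RNA (chr9:35083227-35083286), was closest. Its level in vehicle and PACAP skin was 9.27 and 9.15 in WT30 and 9.15 and 9.19 in WT60. In KO it was 9.53 and 9.66 at 30 min and 9.46 and 9.40 at 60 min. The KO samples all lay above the WT samples, as at 17.5% of probes in either direction, with a log2 difference of 0.32 (SE 0.07, adjusted p = 0.0585). Rpusd4 passed the test when any one of 4 samples was left out, which were the PACAP samples of WT30, KO30 and KO60 and the vehicle sample of WT60 (adjusted p of 0.0192 to 0.0358). Those fits called 12.4%, 9.74%, 22.8% and 21.6% of all probes in that order, where the fit on 8 samples called 3.43%. Their correlation within pairs was -0.40, 0.14, -0.44 and -0.40, beside 0.18 with 8 samples, and a negative value narrows the SE between genotypes. Rpusd4 did not pass without any one of the remaining samples (adjusted p of 0.0776 to 0.332). Nor did it with vehicle samples alone (adjusted p = 0.321) or quantile-normalized signals (adjusted p = 0.191), while it passed with no random block (adjusted p = 0.0319). Pus7 and Rpusd1 also passed without the PACAP sample of KO30 (0.40 and -0.29, adjusted p = 0.0262 and 0.0433) and without that of WT30, where the 5′ probe of Rpusd3 passed too. Dkc1 passed without the PACAP sample of KO60. In the fit over time, leaving out the PACAP sample of KO30 called Trub1 (0.28, adjusted p = 0.0301), Pus7 (-0.32, adjusted p = 0.0136), Dkc1 (-0.44, adjusted p = 0.00576) and both Rpusd3 probes, while it raised the share called on the whole array to 36.3%. Both Rpusd3 probes also passed for time without the PACAP sample of WT30 and, with Dkc1, without that of KO60, in fits that called 24.5% and 28.2% of all probes.

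**Figure D4:**
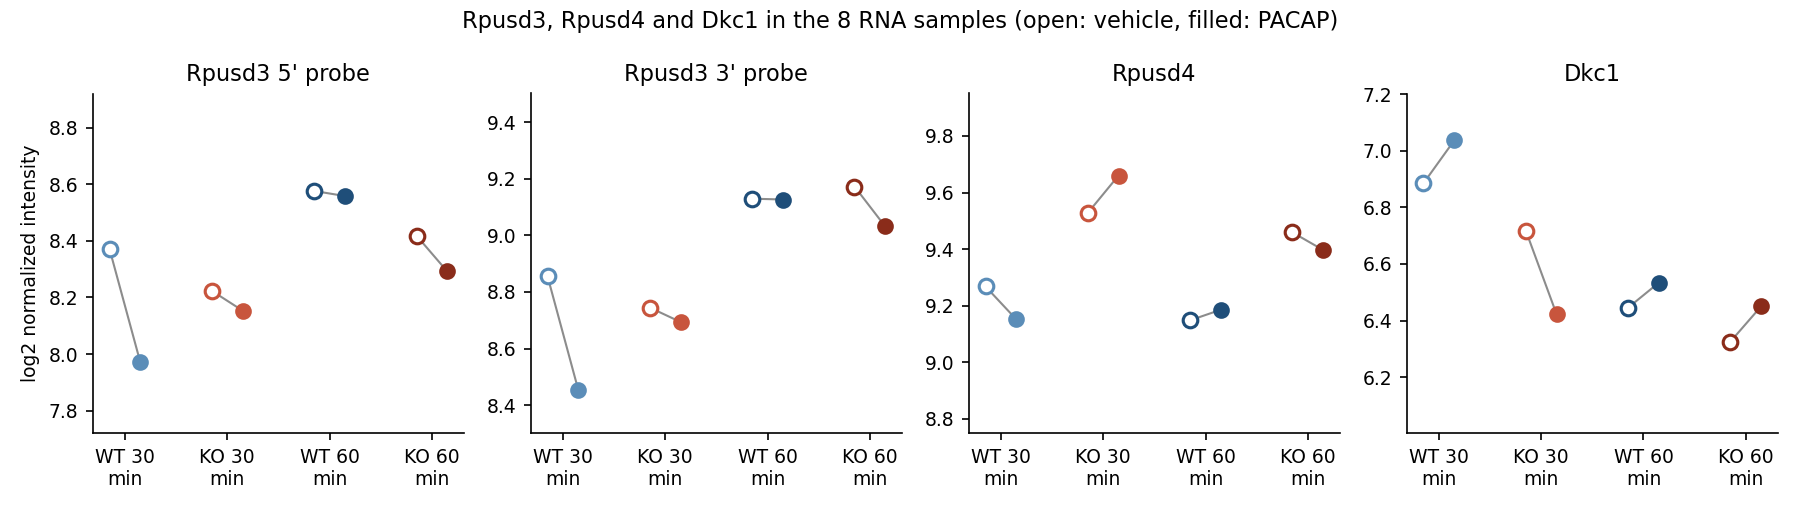
Level (log2 normalized intensity) of both Rpusd3 probes, Rpusd4 and Dkc1 in the 8 RNA samples, with vehicle open and PACAP filled and every panel spanning 1.2 log2 units. Rpusd3 3′ lies higher in all 60 min samples (9.03 to 9.17) than in all 30 min samples (8.45 to 8.86), and Rpusd4 higher in all KO (9.40 to 9.66) than in all WT samples (9.15 to 9.27).

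The partners of Trub2 on the mitochondrial large ribosomal RNA can be set beside it. Of 6 genes of this list with a probe (Trub2, Rpusd3, Rpusd4, Ngrn, Rcc1l and Fastkd2), Trub2 was the 1 called in any comparison. In KO30 Ngrn was at 1.05-fold, Rcc1l at 1.03-fold and Fastkd2, an RNA-binding protein of mitochondrial granules, at 0.695-fold. The level of Fastkd2 was 6.06 to 6.13 over the 8 samples, so close to background that a change could not be measured. The list's median ratios were 0.890 and 0.981-fold in WT30 and KO30 and 0.960 and 0.963-fold at 60 min. A list of 13 other genes of mitochondrial ribosomal RNA modification and large subunit assembly had 0 calls, with 10 of 13 below 1 in WT30 (median 0.854-fold) and 9 of 13 above 1 in KO30 (median 1.32-fold). The Trub2 3′ probe lay on the other side of 1 in both, but its KO30 value chose it, so nothing is read from that. Signs were opposite between WT30 and KO30 at 70.7% of all probes. The 11 genes of mitochondrial translation had 0 calls and medians between 0.953 and 1.04-fold in the 4 comparisons. Among the synthases outside the members, Pusl1 lay between 0.743 and 0.972-fold, and Pus7l between 0.888 and 1.17-fold. Pus7l was lower at 60 than at 30 min (-0.29, adjusted p = 0.0393), in a fit that called 10.8% of all probes. This call was lost with vehicle samples alone and without the vehicle sample of WT30 or of KO30, fits that called 0 probes. Rpusd2 was not well above background.

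The probes most like the 3′ probe of Trub2 were ranked by Pearson r over the 8 RNA samples among 20276 probes, which is a description that includes the sample by which Trub2 was chosen. Over all of them, 294 had an r above 0.9 and 515 one below -0.9, so a high r was not rare. The 5 most like it were Mfge8, a secreted glycoprotein that bridges dying cells to phagocytes (r = 0.99), Ccni, a cyclin-like gene (r = 0.99), Fem1a (r = 0.99), Atxn7l3b (r = 0.98) and Slc20a2, a phosphate transporter (r = 0.98). The samples share arrays in pairs, and without the PACAP sample of KO30 the 5 values were between 0.87 and 0.91. In KO30 these genes were at 0.624, 0.600, 0.522, 0.767 and 0.691-fold in that order, and 0 of the 5 were called in any comparison. Among the 10 other member probes well above background in every channel, which leaves out Dkc1 and the middle and 5′ probes of Trub2, r with the 3′ probe of Trub2 ran from 0.30 at the 3′ probe of Rpusd3 to -0.82 at the 5′ probe of Pus3 and at Pus1. Without the PACAP sample of KO30 these values were -0.01, -0.43 and -0.85, in that order.

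**Figure D5:**
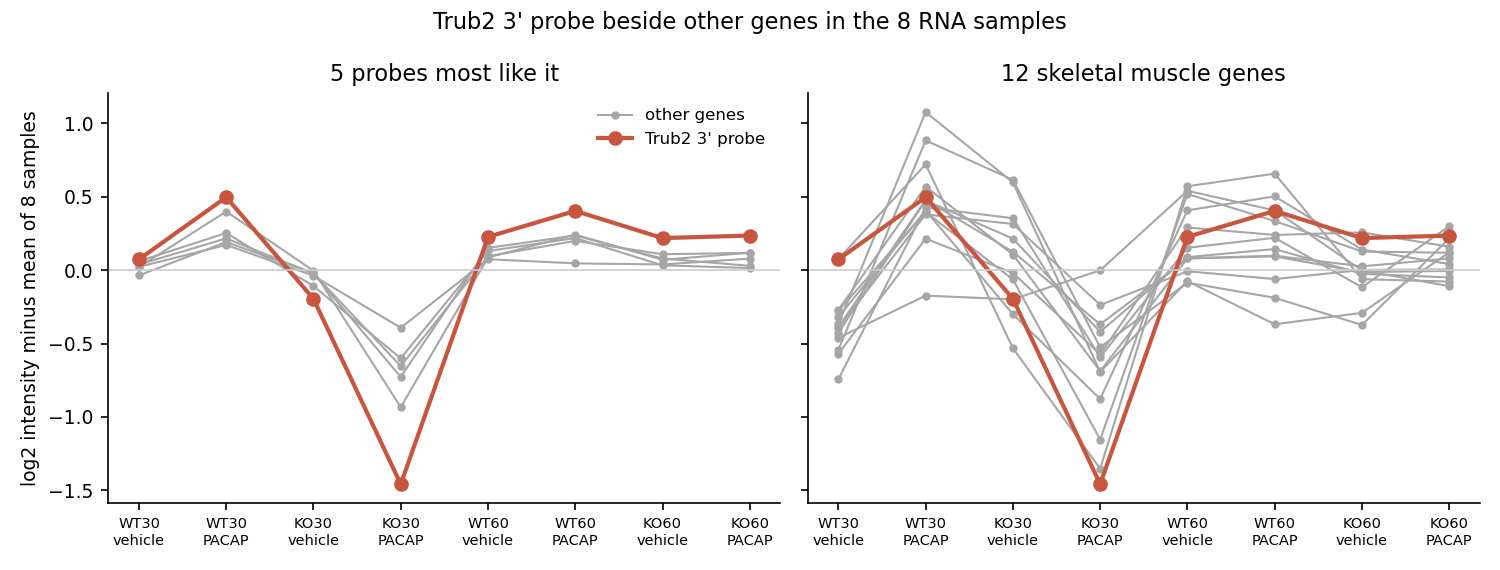
Level in the 8 RNA samples as log2 intensity minus each probe's own mean, for the Trub2 3′ probe (red) beside the 5 probes of other genes most like it (left, grey) and the 12 skeletal muscle genes (right, grey). The PACAP sample of KO30 is the lowest point of Trub2 and of the 5 probes, and the muscle genes were lower there than in the WT30 PACAP sample except Mylpf.

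Markers of several tissues lay away from 1 in the comparison where Trub2 was low. Of 12 skeletal muscle genes, 11 were below 1 in KO30 (median 0.597-fold, with Acta1, Myh1 and Myh4 called down) and 12 above 1 in WT30 (median 1.78-fold, with Myh1, Myh2 and Myh4 called up). Their medians in WT60 and KO60 were 0.978 and 1.02. Their mean level over the 8 samples was lowest in the PACAP sample of KO30 (12.64) and highest in that of WT30 (13.75), the same samples in which the Trub2 3′ probe was lowest and highest. In the vehicle sample of WT30 the muscle genes were at 12.87 and the Trub2 3′ probe at 11.27. In KO30 all 8 epidermal genes (median 0.578-fold, Krt1 and Krt10 called down) and all 5 fibroblast genes (median 0.669-fold) were below 1 as well, as were 5 of 6 eccrine gland genes (median 0.783-fold), all 4 Schwann cell genes (median 0.788-fold) and 4 of 5 cartilage and bone genes (median 0.676-fold, Col10a1 called down). The hair shaft genes were above 1 for 7 of 8 in KO30 (median 3.01-fold, 6 called up), and for 8 of 8 in WT60 (median 4.29-fold, 7 called up), where the Trub2 3′ probe was at 1.11-fold. Also above 1 in KO30 were 7 of 9 neutrophil genes (median 1.16-fold, Retnlg called up), 4 of 4 mast cell genes (median 1.29-fold) and 4 of 4 melanocyte genes (median 1.08-fold). So were 4 of 5 hepatocyte genes (median 1.28-fold), but these were close to background there (mean level 6.18 in vehicle and 6.29 in PACAP skin). The neutrophil median was the ratio of Mpo, which was also dim (6.31 and 6.34). The 5 housekeeping genes had a median of 1.06-fold. The part of these tissue shares in the Trub2 value was not tested.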

How the data were processed

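Per the file headers, the authors scanned 8 two-colour Agilent arrays and extracted them with Feature Extraction 12.0.3.1 (mm9 annotation); the labels name version 11.0.1.1. The deposited log10 ratios (red over green) are background-subtracted and LOWESS-normalized, the deposited p-values come from the software's error models, and the deposited intensity values are mean signals, local backgrounds and processed signals per channel. The authors' series matrix holds log10 ratios of the same spots.

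Here outlier and control spots were left out, and log ratios were set to the direction of PACAP over vehicle by the dyes in the labels and averaged over spots and both arrays. Levels used normexp (offset 50), loess and Aquantile. Feature Extraction marked 54.0 to 94.5% of spots per channel as well above background and 0 as saturated. The number of arrays limits the precision. Fits used limma 3.58.1 in R 4.3.3 (threshold 0.05 on p-values adjusted after Benjamini and Hochberg) on 30350 probes for ratios and 26352 for levels. Python 3.11.15 made the tables and figures.

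Members, gene lists, tests and naming rules (all members; listed genes by counts, with called genes, genes of the H/ACA and mitochondrial pseudouridylation lists, probes within 50 kb of the brightest Trub2 probe and the 5 probes most like it named) were chosen with earlier results of these data known. Replicate numbers mark the dye orientation, not animals.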

Additional observations from a re-analysis of the deposited data

Results flagged for a closer look

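In 28 sets of 4 values (14 member probes in the 4 vehicle and the 4 PACAP samples), each sample was compared with the others, where chance marks about 1 set in 20. The level of the Trub2 3′ probe in the PACAP sample of KO30 was 9.74, and its gap to the nearest of the other PACAP samples was 0.866 of the range; this is the value by which Trub2 was chosen, so it is a description and is not counted against chance. In the sets other than that, 1 was marked. There, at the Trub2 5′ probe, the vehicle sample of KO30 was lowest, with a gap of 0.832 of a range that spanned 6.00 to 6.05, close to background.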

How the results depend on the processing

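The single member call and its absence elsewhere held under all 9 alternatives for the counting rule. The Trub2 3′ probe in KO30 ran from -1.49 to -1.17 (log2) over single arrays and was -1.26 with normexp and loess. Normexp and loess moved 15 of 56 ratios of member probes by more than the spread between their arrays. A single array of 2 cannot leave that spread, and centring moved the arrays by less than 0.001, so those alternatives do not bear on it. Over all 336 alternative ratios, 28 changed sign, 0 of them where the ratio lay beyond 1.2-fold. With the replicate block (dye orientation, 1 array per value) the ratio fits still called 0 members and 0 probes, with 708 and 1440 at an unadjusted p below 0.05.

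Counts of called members outside Trub2 in the level fits were less stable. KO against WT gave 0, and 1 with no random block. 60 against 30 min gave 1, and 0 with vehicle samples alone or quantile-normalized signals. Leaving out each RNA sample in turn, chosen after seeing the data, gave 0 to 4 members for genotype and 0 to 5 for time. Without a whole pair no spread between pairs remains, so those values have no test.

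Over all probes, the genotype fit called 903 (440 higher and 463 lower in KO), and 2608 with no block. It called 0 with vehicle alone, 2436 with quantile normalization (1438 higher, 998 lower) and 347 with the background filter (111 higher, 236 lower). Without 1 sample it called 0 to 6018. The time fit called 2842, and 4893, 0 and 985 with no block, vehicle alone and the filter, and 0 to 9556 without 1 sample. Ratios between genotypes gave 170 without WT30, 83 without WT60 and 17 with time as a covariate, and the mean gave 1 without WT30. The counting rule called 115 to 279 probes per comparison, 446 to 1197 on single arrays and 57 to 170 with normexp and loess (WT30: 32 up and 25 down, beside 100 and 38; KO30: 154 up and 10 down, beside 237 and 42).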
